A study of Bos taurus and Bos frontalis with 6 samples.

Results

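The expression of 5 listed genes of fatty acid and triglyceride synthesis was followed in longissimus dorsi, a long back muscle, of Gayal and Banna cattle. The list names *SREBF1* (ENSBTAG00000007884), *ACACA* (ENSBTAG00000017567), *FASN* (ENSBTAG00000015980), *SCD* (ENSBTAG00000045728) and *DGAT1* (ENSBTAG00000026356). They are listed by identifier for their place in the pathway. Of these 5, 4 had a row among the 27270 genes of the count table, and *SCD* was not analysed here. The symbols came with the list, since the count table holds Ensembl cattle identifiers only.

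RNA sequencing libraries came from 3 Gayal, labelled *Bos frontalis*, and 3 Banna cattle, labelled *Bos taurus*. The labels give an age of 3.5 ± 0.5 years for every sample and name no treatment. A deposited sample sheet adds a batch letter. Batch A holds Banna replicates 1 and 2 and Gayal replicate 1, and batch B holds Banna replicate 3 and Gayal replicates 2 and 3. The meaning of the letter is not given. The sheet classes the fibres of all Banna libraries as coarse and of all Gayal libraries as fine, so fibre class and species cannot be told apart. No label ties the numbered samples to named animals, so p-values measure the spread between these samples, which may be technical.

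Cells make fatty acids from acetyl-CoA in the cytosol. ACACA, acetyl-CoA carboxylase, makes malonyl-CoA in the committed step. FASN, fatty acid synthase, extends it to palmitate, and SCD, stearoyl-CoA desaturase, puts a double bond into the saturated product. DGAT1, a diacylglycerol acyltransferase, joins the last fatty acid to diacylglycerol and so completes a triglyceride. SREBF1 encodes SREBP-1, a transcription factor whose known targets include *ACACA*, *FASN* and *SCD*. In ruminants fat tissue is the main site of this synthesis, with acetate as a main carbon source, and the fat cells that lie between muscle fibres form the marbling of beef.

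Library totals were 53979857 to 90313051 estimated counts, lowest in Gayal replicate 1, and 14112 genes passed the filter on low counts, all 4 measured members among them. The libraries were set apart by batch. With species in the fit, edgeR called 1091 genes higher and 973 lower in batch B, together 14.6% of those tested. These 2064 calls became 0 without any 1 Gayal library, 2 without Banna replicate 3, 1340 and 1243 without Banna replicates 1 and 2, and 0 with the replicate number as a block. With batch in the fit it called 6 genes higher and 0 lower in Gayal, 0.0425% of those tested. Markers of fat cells, muscle fibres, connective tissue and blood could not be matched to the identifiers, so the tissue label was not checked and the share of fat cells in each sample was not measured. In bulk muscle, fewer cells of a type and less RNA per cell cannot be told apart.

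*SREBF1*, the regulator of the group, was lowest in Gayal replicate 1 and highest in the other Gayal libraries. Its level, in TMM-scaled CPM, which are counts relative to the library total, was 237, 148 and 166 in Banna replicates 1, 2 and 3. It was 68.6, 264 and 363 in Gayal replicates 1, 2 and 3. The Gayal libraries thus lay on both sides of all Banna libraries, and the species overlapped. In none of the 4 genes did the species separate, as they did in 10.4% of all genes tested. The mean of *SREBF1* was 232 ± 150 CPM over the Gayal libraries, against 184 ± 46.9 CPM over the Banna libraries (SD, n = 3). The highest library was 5.29-fold above the lowest, against a median of 3.08-fold among the 7658 tested genes with a mean of at least 5 CPM.

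*ACACA*, the carboxylase of the committed step, followed the batch letter. It was at 3.50, 5.99 and 12.8 CPM in Banna replicates 1, 2 and 3 and at 3.45, 15.1 and 19.8 CPM in Gayal replicates 1, 2 and 3. The 3 libraries of batch A were at 3.45 to 5.99 CPM and those of batch B at 12.8 to 19.8 CPM, with no overlap. Over all genes tested, the batches did not overlap for 43.2%, and 21.1% lay higher in every batch B library. The batch means were 15.9 ± 3.55 CPM in B and 4.32 ± 1.45 CPM in A (SD, n = 3), a ratio of 3.69. By species, the mean was 12.8 ± 8.41 CPM for Gayal and 7.44 ± 4.83 CPM for Banna (SD, n = 3), with overlapping libraries. *ACACA* had the fewest counts of the 4 genes in each batch A library, and *DGAT1* had the fewest in each batch B library. Low values of the table piled up at a step, taken as the smallest unit counted. The step was 3.31 to 3.33 counts in the 3 batch A libraries and 4 in the 3 batch B libraries. It thus moved with the batch letter. With counts divided by the step, which rescales whole libraries, the log2 batch difference of *ACACA* was 1.82 (edgeR adjusted p = 0.0273). The part of the step in this difference beyond the scaling of whole libraries was not tested. The 194 counts of *ACACA* in Gayal replicate 1 were 59 steps, with a 95% exact Poisson interval of 44.9 to 76.1 steps that covers counting error only.

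*FASN*, the synthase itself, had nearly equal levels in the Banna libraries and unequal ones in Gayal. Banna replicates 1, 2 and 3 were at 32.5, 35.0 and 28.7 CPM. Gayal replicates 1, 2 and 3 were at 13.2, 55.7 and 62.0 CPM. As for *SREBF1*, Gayal replicate 1 was below and the other Gayal libraries above every Banna library. The mean was 43.6 ± 26.5 CPM for Gayal and 32.1 ± 3.18 CPM for Banna (SD, n = 3), and the highest library was 4.68-fold above the lowest. The estimated counts behind these levels ran from 744 in Gayal replicate 1 to 5098 in Gayal replicate 3.

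*DGAT1*, the enzyme of triglyceride completion, varied least. It was at 13.2, 19.3 and 9.80 CPM in Banna replicates 1, 2 and 3 and at 9.49, 8.81 and 12.1 CPM in Gayal replicates 1, 2 and 3. The highest value, in Banna replicate 2, was 2.19-fold above the lowest, in Gayal replicate 2. Gayal replicate 1, the lowest library for the other 3 genes, ranked 5 of 6 here. The mean was 10.1 ± 1.76 CPM for Gayal and 14.1 ± 4.82 CPM for Banna (SD, n = 3), and the libraries overlapped.

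**Figure D1:**
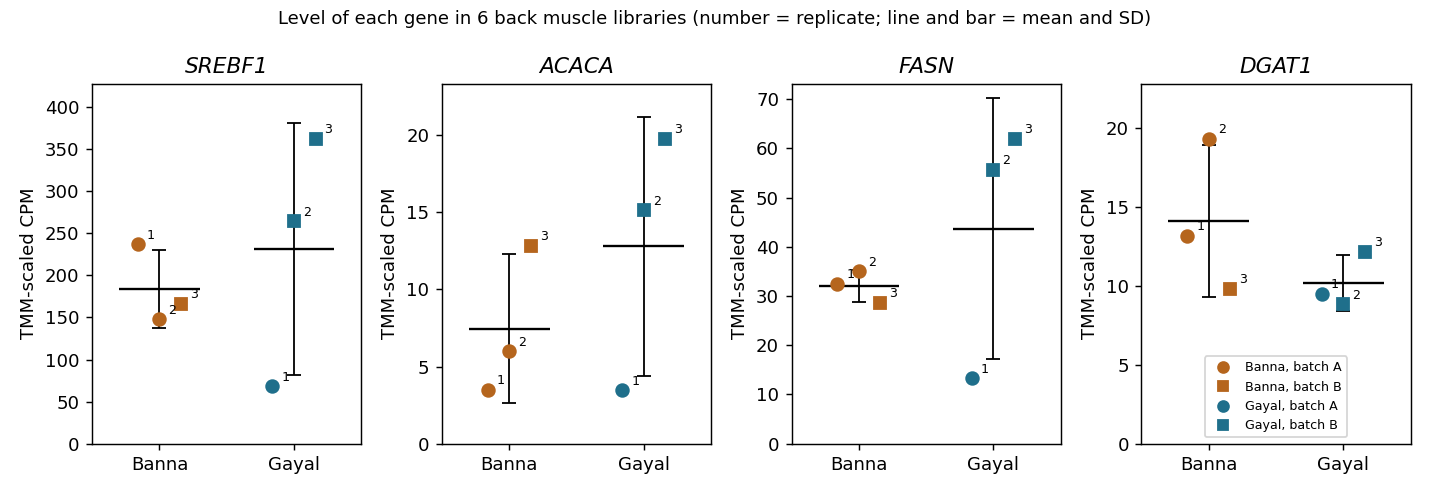
TMM-scaled CPM of SREBF1, ACACA, FASN and DGAT1 in 3 Banna and 3 Gayal libraries, each panel with its own vertical axis from 0; points are libraries, numbered by replicate, circles are batch A and squares batch B, and the line and bar are the mean and SD. Gayal replicate 1 sits below all Banna libraries for SREBF1 and FASN while Gayal replicates 2 and 3 sit above them, and ACACA is at 3.45 to 5.99 CPM in batch A and 12.8 to 19.8 CPM in batch B.

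The study set Gayal against Banna muscle in view of their different beef quality. None of the 4 genes differed between the species by the test: 0 of 4 were called higher and 0 of 4 lower by edgeR with batch in the fit, and 0 of 4 had an unadjusted p under 0.05, as against 1123 of all 14112 genes. For *SREBF1* the log2 difference, Gayal minus Banna, was -0.29 (SE 0.66, edgeR adjusted p = 0.953), with a 95% interval of -1.86 to 1.28. For *FASN* it was -0.15 (SE 0.60, edgeR adjusted p = 0.970), with an interval of -1.59 to 1.28. Both intervals hold differences of over 1 on the log2 scale in either direction. The interval of *ACACA* was narrower, -0.93 to 0.93 around a log2 difference of -0.0034 (SE 0.39, edgeR adjusted p = 0.999). That of *DGAT1* was -1.23 to 0.55 around -0.34 (SE 0.37, edgeR adjusted p = 0.867). DESeq2 and limma-voom with the same terms also called 0 of the 4, although over all genes DESeq2 called 660 of 18637, 3.54%, and limma-voom 13 of 14112, 0.0921%.

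Without batch in the fit the direction turned for *SREBF1*, *FASN* and *ACACA*, which were then higher in Gayal by a log2 of 0.33, 0.44 and 0.78. *DGAT1* stayed lower, at -0.47. None passed, with edgeR adjusted p of 0.972 for *ACACA*, *FASN* and *DGAT1* and 0.980 for *SREBF1*. That fit called 0 of 14112 genes in edgeR, with 720 at an unadjusted p under 0.05, and 1 in limma-voom (0.00709%) and 173 in DESeq2 (1.07%). Batch B holds 2 of the 3 Gayal libraries and 1 of the 3 Banna libraries, so the species difference of a gene that moves with batch shifts when batch leaves the fit.

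The batch difference passed for 1 of the 4 genes. *ACACA* was higher in batch B by a log2 of 1.88 (SE 0.41, edgeR adjusted p = 0.0321), or 3.69-fold, with a 95% interval of 0.92 to 2.85. Of all genes, 7.73% were called higher in batch B, so a call here does not set *ACACA* apart. DESeq2 and limma-voom also called it, with adjusted p of 0.000293 and 0.0238, where 11.8% and 8.86% of all genes were called higher. The edgeR call was lost without Banna replicate 1, Banna replicate 3, Gayal replicate 1, Gayal replicate 2 or Gayal replicate 3 (adjusted p of 0.0647, 0.104, 0.187, 0.0806 and 0.0723), while the log2 difference stayed between 1.43 and 2.34. It was also lost with the replicate number as a block, at a log2 of 1.03. Replicates 1 and 3 each lie in 1 batch, so there the batch difference rests on replicate 2 alone. Most of these fits called at most 2 genes in the whole table; only the fit without Banna replicate 1 called many, 1340. Apart from the fit without Banna replicate 1, the loss is therefore not particular to *ACACA*. Inside each species, with a single library in 1 batch, the difference was 1.43 in Banna and 2.41 in Gayal.

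For *SREBF1* and *FASN* the batch difference was 0.99 (SE 0.66) and 0.96 (SE 0.60) on the log2 scale, with edgeR adjusted p of 0.331 and 0.307. Among the Gayal libraries, batch B was above batch A by a log2 of 2.26 for *SREBF1* and 2.22 for *FASN*, and among the Banna libraries the differences were -0.21 and -0.24. Only the sizes of these differences are given, since batch A has a single Gayal library and batch B a single Banna library. *DGAT1* had a batch difference of -0.29 (SE 0.37, edgeR adjusted p = 0.622), which was -1.05 with the replicate number as a block, -0.73 in Banna and 0.21 in Gayal.

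**Figure D2:**
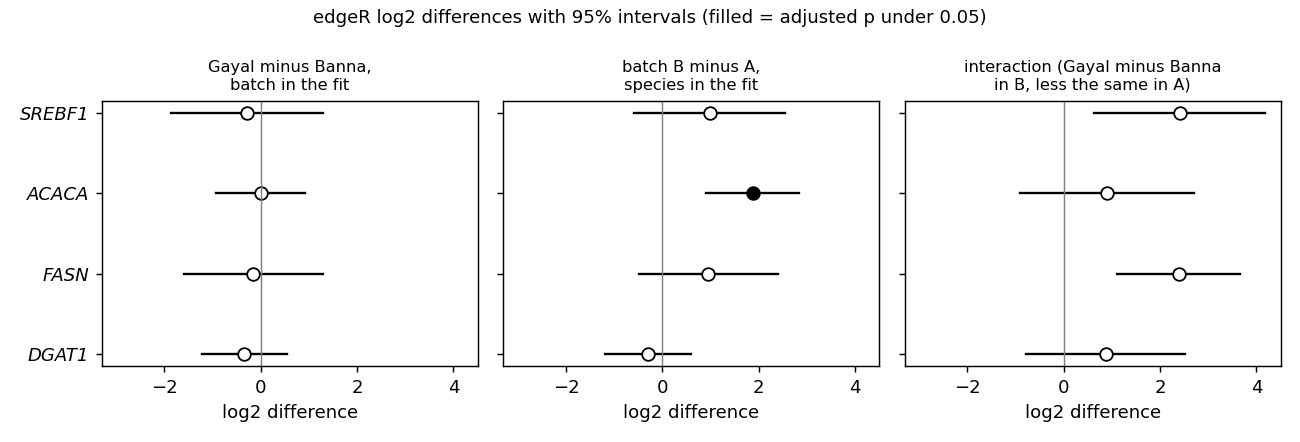
Log2 differences from edgeR for the 4 genes, with unadjusted 95% intervals: Gayal minus Banna with batch in the fit, batch B minus batch A with species in the fit, and the species by batch interaction. The filled point, ACACA between batches at 1.88, is the only value with an adjusted p under 0.05, and all 4 species intervals cross 0.

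All 4 genes had a fitted species difference below 0 in batch A and above 0 in batch B, as had 25% of all genes tested. In batch A, Gayal minus Banna was -1.50 for *SREBF1*, -1.36 for *FASN*, -0.46 for *ACACA* and -0.78 for *DGAT1* on the log2 scale. In batch B it was 0.98, 1.10, 0.51 and 0.16. The libraries themselves showed this order, with Gayal below every Banna library in batch A and above Banna in batch B, for *SREBF1*, *FASN* and *ACACA* and for 9.03% of all genes. For *ACACA* the gap in batch A was only that between 3.45 and 3.50 CPM. The interaction, which is the difference in B less that in A, was 2.40 for *SREBF1* (SE 0.72, edgeR adjusted p = 0.708, unadjusted p = 0.0170) and 2.39 for *FASN* (SE 0.51, edgeR adjusted p = 0.666, unadjusted p = 0.00421). It did not pass over all genes. In edgeR 0 of 14112 genes passed this test, with 931 at an unadjusted p under 0.05, and in limma-voom 0 passed. DESeq2 called 240 of 14679 genes, and 0.756% were called in the direction of *FASN*, which was among them (adjusted p = 0.0136). *SREBF1* was not (DESeq2 adjusted p = 0.0621). The interaction was 0.90 for *ACACA* and 0.87 for *DGAT1*, with edgeR adjusted p of 0.870 and 0.862.

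The values below 0 rest on Gayal replicate 1, the single Gayal library of batch A and the library with the lowest total. Without it, and with batch in the fit, the species difference was 1.04 for *FASN*, 0.92 for *SREBF1*, 0.44 for *ACACA* and 0.10 for *DGAT1*, and none passed. Without Banna replicate 3, the single Banna library of batch B, it was -1.35 for *FASN*, -1.49 for *SREBF1*, -0.46 for *ACACA* and -0.77 for *DGAT1*, and again none passed. Each of these fits leaves 1 batch with a single species, so it nearly repeats the difference inside the other batch and is not separate evidence. The part of library depth in the levels of these libraries was not tested.

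*SREBF1* and *FASN* had like profiles over the libraries. The ratio of their counts within a library needs no scaling between libraries. Counts of *FASN* were 0.137, 0.236 and 0.173 of those of *SREBF1* in Banna replicates 1, 2 and 3, and 0.193, 0.211 and 0.171 in Gayal replicates 1, 2 and 3. The ratio thus spanned 1.72-fold over libraries in which the genes themselves spanned 4.68-fold and 5.29-fold. The lowest and highest levels of both genes were in Gayal libraries. Both ends of the ratio, 0.137 and 0.236, were in Banna libraries, where *SREBF1* was highest in replicate 1 and *FASN* in replicate 2. The like profiles thus rest on the Gayal libraries. Gayal replicate 1, where both were lowest, fell inside the range of the others. The mean log2 ratio differed by 0.10 between the species (Gayal -2.39 ± 0.15, Banna -2.49 ± 0.39, SD, n = 3; two-sided exact permutation p = 0.8, adjusted p = 0.8 over 6 gene pairs) and by -0.0030 between the batches (exact permutation p = 1).

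Likeness was also measured against all other genes, as the root mean square difference of log2 CPM after each gene was centred on its own mean over the 6 libraries. *SREBF1* was 0.25 from *FASN* and ranked 10 of 14111 genes by nearness to it, where the median gene was at 0.99. *FASN* ranked 4 of 14111 by nearness to *SREBF1*. With each gene centred on its batch means the ranks were 76 and 26. Without Gayal replicate 1 they were 190 and 153, the farthest of any library left out and still within the nearest 1.35% and 1.08% of genes. The genes nearest to *FASN* were ENSBTAG00000049656, at 0.15, and ENSBTAG00000055269, at 0.16. The first of these had only 4 to 29 counts per library, the second 69 to 425, and their symbols are not known from the files.

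*ACACA* and *DGAT1* did not follow this pair as closely. *ACACA* was 0.66 from *FASN* and 0.75 from *SREBF1*, and ranked 1979 and 3039 of 14111 by nearness to them. It was as low as in Gayal replicate 1 in Banna replicate 1, where *SREBF1* was above its own mean. Counts of *ACACA* were 0.0148 of those of *SREBF1* in Banna replicate 1 and 0.0404 to 0.0772 of them in the other 5 libraries. *DGAT1* was 0.77 from *FASN*, 0.83 from *SREBF1* and 1.16 from *ACACA*, the widest gap of any pair. By nearness to *FASN* it ranked 3709.

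**Figure D3:**
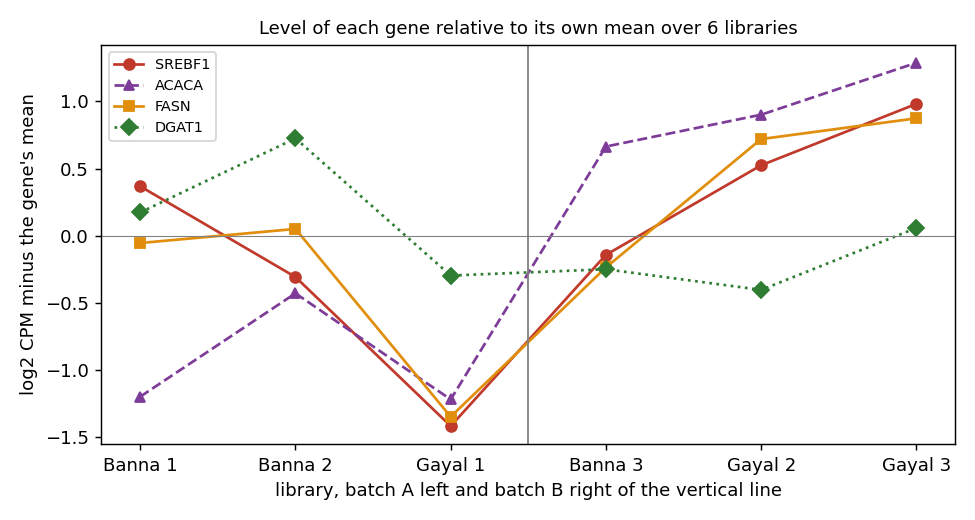
Log2 CPM of each gene minus its own mean over the 6 libraries, with batch A on the left and batch B on the right; lines join the points of 1 gene and have no order in time. SREBF1 and FASN are 0.25 apart in root mean square, but on opposite sides of their means in Banna replicates 1 and 2. ACACA is low in all of batch A and DGAT1 is highest in Banna replicate 2.

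The ratio of *ACACA* to *DGAT1*, the first and the last enzyme of the route, separated the batches. So did the ratios of *FASN* to *DGAT1*, *FASN* to *ACACA* and *ACACA* to *SREBF1*. *ACACA* by itself separated the batches, so the ratios that hold it are not evidence apart from its own levels. Its edgeR log2 batch difference was 1.88, against -0.29 for *DGAT1*. The share of other gene pairs that separate the batches was not measured. There were 0.266, 0.311 and 0.364 counts of *ACACA* per count of *DGAT1* in Banna replicates 1 and 2 and Gayal replicate 1, the libraries of batch A. In batch B there were 1.31 in Banna replicate 3, 1.72 in Gayal replicate 2 and 1.63 in Gayal replicate 3. The log2 ratio was 0.62 ± 0.21 in batch B and -1.68 ± 0.23 in batch A (SD, n = 3), a difference of 2.31 or 4.96-fold. The two-sided exact permutation p was 0.1, the least that 3 against 3 libraries allow, and 0.15 adjusted over 6 pairs. Leaving out any 1 library kept it between 2.20 and 2.43. Between the species the same ratio differed by 1.08 (Gayal 0.0091 ± 1.27, Banna -1.07 ± 1.27, SD, n = 3; exact permutation p = 0.2, adjusted p = 0.72). This value takes no account of batch, and batch B holds 2 of the 3 Gayal libraries. Inside the batches the difference was 0.34 in A and 0.35 in B, with every Gayal library above every Banna library of its batch. It was not tested there, since each batch holds a single library of 1 species. This is 1 of 6 pairs, and the share of other gene pairs with this order was not measured. These are counts of genes of unequal length, so a ratio tells how libraries differ and not which transcript is more abundant.

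The other pairs differed less between batches. On the log2 scale *FASN* against *DGAT1* differed by 1.31 between batch B and batch A, and *SREBF1* against *DGAT1* also by 1.31 (exact permutation p = 0.1 and 0.2, and 0.15 and 0.24 adjusted over 6 pairs). *ACACA* against *SREBF1* was at -4.01 in batch B and -5.01 in batch A, and *FASN* against *ACACA* at 1.56 and 2.57 (exact permutation p = 0.1 for each, and 0.15 adjusted). Between the species no pair reached an exact permutation p under 0.2. For *FASN* to *SREBF1* the difference, Gayal minus Banna, was 0.10 in batch A and 0.14 in batch B. For the remaining 4 pairs it had opposite signs in the 2 batches, for *FASN* to *DGAT1* at -0.60 in A and 0.96 in B.

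**Figure D4:**
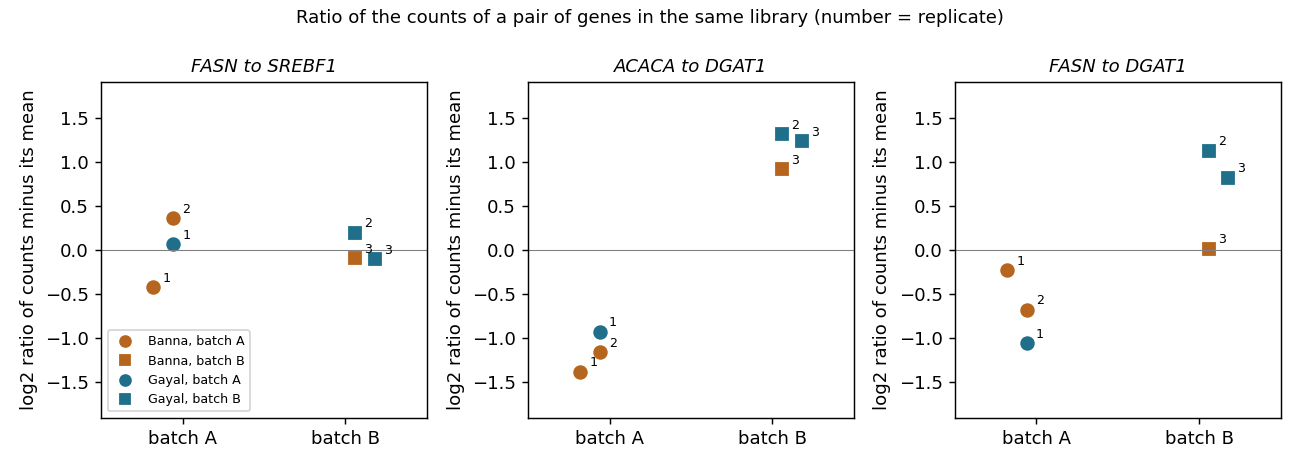
Log2 ratio of the counts of 2 genes in the same library, minus its mean over 6 libraries, for FASN to SREBF1, ACACA to DGAT1 and FASN to DGAT1; colours are species, circles batch A and squares batch B, and numbers are replicates. The FASN to SREBF1 ratio overlaps between batches, and the ACACA to DGAT1 ratio is 4.96-fold higher in batch B.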

How the data were processed

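The deposited values are estimated counts per gene, whole numbers not scaled for depth. Per the submitters' processing notes, HISAT2 2.0.4 and build ARS-UCD1.2 were used; the counter, annotation and strand setting were not given in the sources used here. Gayal reads were thus also placed on a cattle genome, and reads shared with gene copies could be divided. The batch letter is another deposited value, per the file headers. Counts were fitted with edgeR 4.0.16 (R 4.3.3; TMM factors, filterByExpr, robust quasi-likelihood F test, species and batch as terms), with Benjamini-Hochberg adjustment over 14112 genes and a threshold of 0.05. The standard error is the log2 difference divided by the square root of F. DESeq2 1.42.0, on all genes, limma 3.58.1 with voom, other scalings and filters, a replicate block and left-out libraries were alternatives. Within-batch and within-species fits had 1 residual degree of freedom. Log2 CPM used a prior count of 2. The step is the spacing, among values up to 60, whose multiples hold the largest excess of genes. Members, lists and tests were chosen with earlier results of these data known. All listed members are named, and so are the 2 genes nearest to *FASN*. Lists of 30 other pathway genes and of cell markers, and a search of promoters for motifs, were not used, since 0 identifiers matched the reference table and no sequences were at hand. No label pairs samples by replicate number, and the main fit treated them as unpaired.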

Additional observations from a re-analysis of the deposited data

Results flagged for a closer look

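The species difference of *FASN* differed between the batches in DESeq2, which gave the interaction a log2 of 2.46 and an adjusted p of 0.0136. In edgeR and limma-voom the same term was 2.39 and 2.38 and did not pass (adjusted p of 0.666 and 0.803). Batch A holds a single Gayal library and batch B a single Banna library.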

How the results depend on the processing

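Alternatives marked here as added were chosen after the data were examined: fits within a species, settings of the interaction and of the likeness ranks, and left-out libraries for ratios. No cause of a shift was tested. No alternative called a species difference of any of the 4 genes (19 each), and the smallest edgeR adjusted p was 0.437, for *FASN* in batch B alone. Genes called between species, 6 in all, became 0 without a batch term, 660 with DESeq2, 13 with limma-voom, 3 with library totals and 43 without a filter. Leaving out single libraries gave 0 to 7.

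Signs turned as follows. Without a batch term the species difference was 0.44 for *FASN*, 0.78 for *ACACA* and 0.33 for *SREBF1*. In batch B alone it was 1.10, 0.51 and 0.98, and 0.16 for *DGAT1*. That of *ACACA*, at -0.0034, also turned with DESeq2 (0.0063), limma-voom (0.11), DESeq2 size factors (0.010), library totals (0.088), the stricter filter (0.017), removal of the 20 most abundant genes (0.012) and division by the step (0.023). Library totals moved the median species difference of all genes from -0.032 to 0.074. With a library left out, the species difference was -1.35 to 1.04 for *FASN*, -0.46 to 0.44 for *ACACA*, -1.49 to 0.92 for *SREBF1* and -0.77 to 0.096 for *DGAT1*. The low ends came without Banna replicate 3 and the high ends without Gayal replicate 1. Each of these fits leaves 1 batch with a single species, so it nearly repeats the difference inside the other batch.

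The batch difference was -0.24 in Banna and 2.22 in Gayal for *FASN*, -0.21 and 2.26 for *SREBF1*, 1.43 and 2.41 for *ACACA*, and -0.73 and 0.21 for *DGAT1*. These fits were added, each has a single library in 1 batch, and only sizes are given. With a library left out the batch difference was -0.24 to 2.15 for *FASN*, 1.43 to 2.34 for *ACACA*, -0.21 to 2.19 for *SREBF1* and -0.73 to 0.14 for *DGAT1*. The low ends came without Gayal replicate 1 and the high ends without Banna replicate 3, where the batch difference rests on a single species. Genes called between batches, 2064 in all, were 4468 in DESeq2 and ranged from 0 to 1340 when single libraries were left out.

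The interaction of *FASN* became 2.46 and passed in DESeq2 (added). It was 2.36 to 2.52 with a library left out, against 0.53 to 1.32 for *ACACA* and 2.11 to 2.77 for *SREBF1*. Gayal replicate 1 and Banna replicate 3 could not be left out of it. Among genes of at least 5 CPM the ranks of likeness were 4 for *SREBF1* from *FASN* and 2 for *FASN* from *SREBF1*. With batch centring they were 76 and 26, and without single libraries 7 to 190 and 6 to 153 (added).

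With the replicate block and no batch term, 0 genes were called between species, and the difference was 0.19 for *FASN*, 0.65 for *ACACA* and 0.12 for *SREBF1*. With the replicate block and batch, 0 genes were called, the species difference of *ACACA* was 0.31, and its batch difference was 1.03 and not called, as for every gene, since 0 were called between batches. The batch difference of *DGAT1* became -1.05, not called. The block changed no other call of the 4 genes. Across genes, libraries of equal number deviated from their group means with correlations of 0.25, -0.45 and 0.28 for replicates 1, 2 and 3. Batch was not removed first. The libraries of replicates 1 and 3 share a batch letter across the species and those of replicate 2 do not. These correlations therefore cannot decide whether the samples are paired, and the labels do not pair them.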
